A study of Mus musculus with 11 samples.

Results

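Hypoxia-inducible factors (HIFs) are transcription factors made of an oxygen-regulated alpha subunit and a partner subunit of the ARNT type. In oxygenated cells the EGLN prolyl hydroxylases mark the alpha subunit, the von Hippel-Lindau protein VHL then binds it and directs its destruction, and the asparaginyl hydroxylase HIF1AN blocks its contact with co-activators. In oxygen-sensing tissues of the sympathoadrenal lineage the alpha subunit HIF-2alpha, encoded by Epas1, is known to be needed for the development and function of the catecholamine-making cells. Here 10 genes were examined, chosen by name: the alpha subunit genes Epas1, Hif1a and Hif3a, the partner genes Arnt and Arnt2, the prolyl hydroxylase genes Egln1, Egln2 and Egln3, and Vhl and Hif1an. All 10 were among the 30142 genes measured, each by 1 transcript cluster that the array annotation pairs with that symbol alone.

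The tissues were carotid body, the arterial organ that senses blood oxygen (3 arrays, each a pool of tissue from 10 mice), adrenal medulla, the catecholamine-secreting core of the adrenal gland (4 arrays, 3 mice a pool), and superior cervical ganglion, which holds sympathetic neurons (4 arrays, 3 mice a pool). All mice were wild type, of the strain labelled C57B6, of both sexes and 2 months old, and no group was treated or exposed to low oxygen. Pooling means that a replicate is a pool and not an animal, and the labels do not say how animals were allotted to pools. Total RNA was hybridised to Affymetrix mouse transcriptome arrays, and values are log2 signals on the authors' scale, so a difference of 1 is a 2-fold difference on that scale. Probes differ between genes, so a gene's level was compared between tissues and never with the level of another gene.

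No chromaffin or glomus marker listed here was called above both other tissues in carotid body. Th, which encodes tyrosine hydroxylase and marks catecholamine-making cells, was at 17.69 in carotid body, 19.57 in adrenal medulla and 19.22 in ganglion (means), and was called lower in carotid body than in both. The summed signal of the 8 chromaffin and glomus markers was likewise lowest there, at 18.39 to 20.04 in carotid body, 21.67 to 21.75 in adrenal medulla and 20.65 to 20.81 in ganglion. Dbh averaged 19.84 in adrenal medulla and 19.83 in ganglion (SD 0.003 and 0.009), near the highest values of the arrays (19.65 to 19.93). Differences and spreads of markers this bright, and of their sum, may therefore be compressed. Th and Dbh were also high in ganglion, so the list does not single out glomus cells. Single markers were split against ganglion, where Chga (1.98) and Chgb (1.64) were called higher in carotid body and 3 others lower. Against adrenal medulla 6 of the 8 were called lower in carotid body. Within each comparison the remaining markers of the list were not called. Pnmt, which makes adrenaline, averaged 14.13 in adrenal medulla and lay under the background bound in ganglion, and all 8 neuron markers were higher in ganglion than in both other tissues. All 7 adrenal cortex markers were called above both other tissues in adrenal medulla, with a summed log2 signal of 7.79 to 8.23 in carotid body, 21.22 to 21.40 in adrenal medulla and 7.69 to 8.30 in ganglion. The carotid body arrays differed most among themselves: the summed neuron signal was 18.28, 16.38 and 17.28 and the summed catecholamine-cell signal 20.04, 18.39 and 19.17 on replicates 1 to 3, and replicate 2 had the highest skeletal muscle sum, 10.08 beside 8.10 and 8.20. Because whole tissue was hybridised, fewer cells of a type and less RNA per cell cannot be told apart in any difference below.

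**Figure D1:**
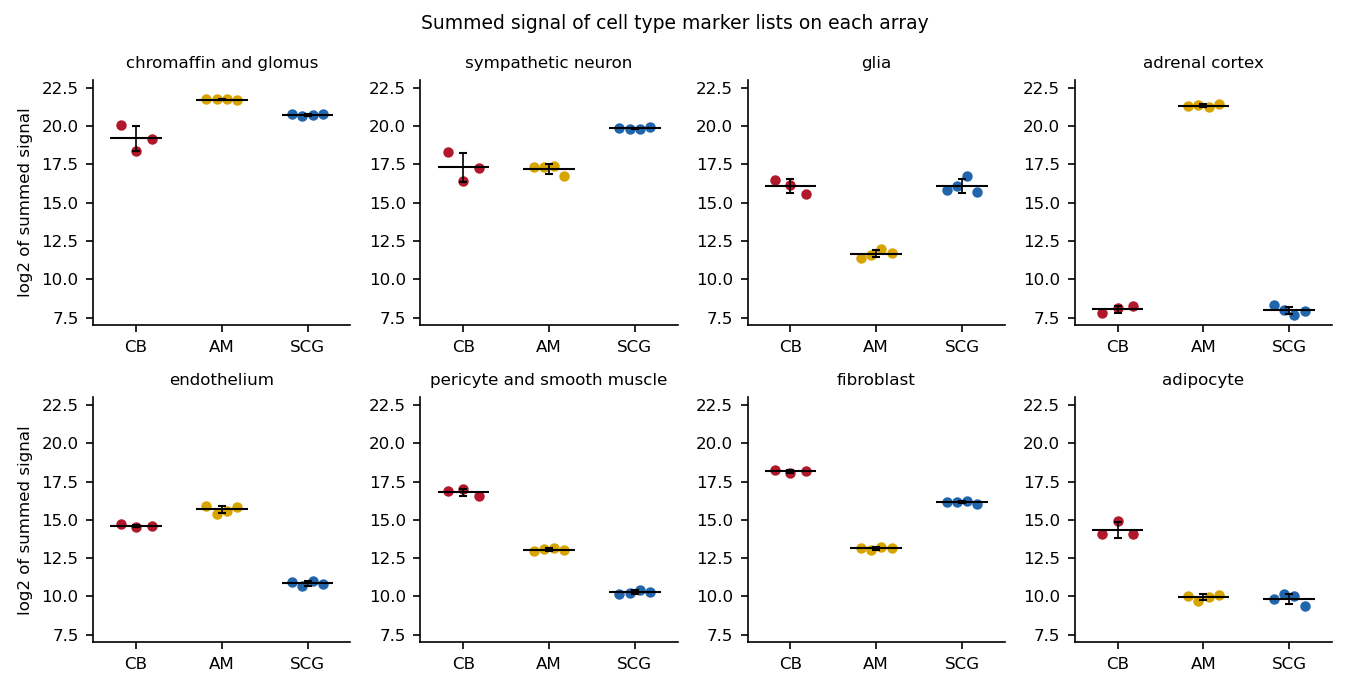
Summed signal of 8 cell type marker lists on each array (y axis, log2 of the sum of the linear signals; CB carotid body, AM adrenal medulla, SCG superior cervical ganglion; points are arrays, bars the mean and SD). The adrenal cortex list stands between 21.22 and 21.40 on the adrenal medulla arrays, the pericyte and smooth muscle list is highest on the carotid body arrays, and the endothelial list is lowest on the ganglion arrays.

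Proximal promoters of the members are shown because HIF acts on genes through a short core motif, and some hydroxylase genes are themselves known HIF targets. RefSeq promoters of assembly GRCm38.p6 were found for 9 of the 10 members, all but Epas1. The 250 bases before the annotated start site were searched on both strands for ACGTG and for GCGTG, the 2 forms of the core. In CACGTG the form ACGTG lies on both strands. Matches are in capitals, each sequence reads 5′ to 3′ along the gene's strand, and a match is a run of letters, not a binding site. The promoters of the members whose levels differed most between tissues follow, with that of Egln1 for comparison with Egln3.
Hif1a, chr12:73907617-73907866, plus strand: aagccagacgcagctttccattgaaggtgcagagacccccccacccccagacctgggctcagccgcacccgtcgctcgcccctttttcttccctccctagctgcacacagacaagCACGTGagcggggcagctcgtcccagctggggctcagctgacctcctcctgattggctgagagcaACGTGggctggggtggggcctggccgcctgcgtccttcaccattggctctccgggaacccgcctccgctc
Arnt, chr3:95434140-95434389, plus strand: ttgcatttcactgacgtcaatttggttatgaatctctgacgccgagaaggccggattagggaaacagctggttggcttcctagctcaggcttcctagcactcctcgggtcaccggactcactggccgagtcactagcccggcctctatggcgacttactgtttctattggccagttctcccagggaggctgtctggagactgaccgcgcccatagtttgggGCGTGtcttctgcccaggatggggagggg
Arnt2, chr7:84410039-84410288, minus strand: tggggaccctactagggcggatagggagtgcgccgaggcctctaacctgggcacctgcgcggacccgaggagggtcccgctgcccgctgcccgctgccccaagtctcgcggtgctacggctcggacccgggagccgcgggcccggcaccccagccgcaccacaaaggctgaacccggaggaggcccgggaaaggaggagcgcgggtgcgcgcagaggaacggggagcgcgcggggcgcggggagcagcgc
Egln1, chr8:124949255-124949504, minus strand: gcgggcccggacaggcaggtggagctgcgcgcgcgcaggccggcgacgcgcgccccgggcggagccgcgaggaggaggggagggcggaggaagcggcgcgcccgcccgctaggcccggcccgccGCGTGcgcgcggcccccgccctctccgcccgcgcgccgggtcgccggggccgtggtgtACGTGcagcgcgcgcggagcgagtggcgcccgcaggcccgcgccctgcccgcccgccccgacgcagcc
Egln3, chr12:54203875-54204124, minus strand: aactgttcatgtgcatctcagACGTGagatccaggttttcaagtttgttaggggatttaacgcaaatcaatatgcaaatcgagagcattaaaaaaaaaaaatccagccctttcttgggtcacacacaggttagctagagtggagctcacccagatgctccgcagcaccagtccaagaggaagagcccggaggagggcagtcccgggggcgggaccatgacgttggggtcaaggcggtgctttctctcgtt

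The form ACGTG occurred 3 times in the Hif1a window, where CACGTG is counted once on each strand and a further match begins 70 bases before the start site. Egln1 held 1 match to ACGTG, 68 bases before the start, and 1 to GCGTG. Egln3 held 1 match to ACGTG, 229 bases before the start. Arnt held 1 match to GCGTG, 29 bases before the start, and Arnt2 held neither form. Among the windows not printed, Egln2 held 1 match to ACGTG and 3 to GCGTG in 1 window, and 1 to GCGTG in a further window. Hif3a held 2 matches to GCGTG, and Vhl and Hif1an held neither form. Of 32851 RefSeq promoter windows of this length, 16.6% held ACGTG, 28.2% held GCGTG and 38.6% held at least 1 of them. The median of those windows was 52.4% G and C, so the shares are not a like-for-like background for windows richer in G and C. Base composition differed widely among the members, since the Egln1 window was 86.0% G and C with 51 CpG dinucleotides, whereas the Egln3 window was 50.8% G and C with 10.

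Across the tissues, Epas1 was highest in carotid body, Arnt2 and Arnt were highest in adrenal medulla, and Egln3 was highest in ganglion, while Hif3a, Egln1, Egln2, Vhl and Hif1an stayed within 2-fold in every comparison. A gene was called at a limma adjusted p under 0.05 (Benjamini-Hochberg over all genes) with a difference of at least 2-fold. Between carotid body and adrenal medulla, 1 of 10 members was called higher (Epas1, where 6.06% of all genes were called higher) and 1 lower (Arnt2, against 4.95% of all genes). Between carotid body and ganglion, 2 were called higher (Epas1 and Arnt2, against 5.61%) and 1 lower (Egln3, against 8.28%). Between adrenal medulla and ganglion, 4 were called higher (Epas1, Arnt2, Arnt and Hif1a, against 5.72%) and 1 lower (Egln3, against 7.5%).

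By the adjusted p alone, 4 members differed between carotid body and adrenal medulla (29.3% of all genes did), 8 between carotid body and ganglion (34.1%) and 5 between adrenal medulla and ganglion (34.4%). The median difference of the 10 members was -0.08, 0.36 and 0.12 in these comparisons, beside 0.05, -0.02 and -0.08 over all genes. The carotid body comparisons share the carotid body arrays and the ganglion comparisons share the ganglion arrays, so the comparisons are not independent of each other.

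**Figure D2:**
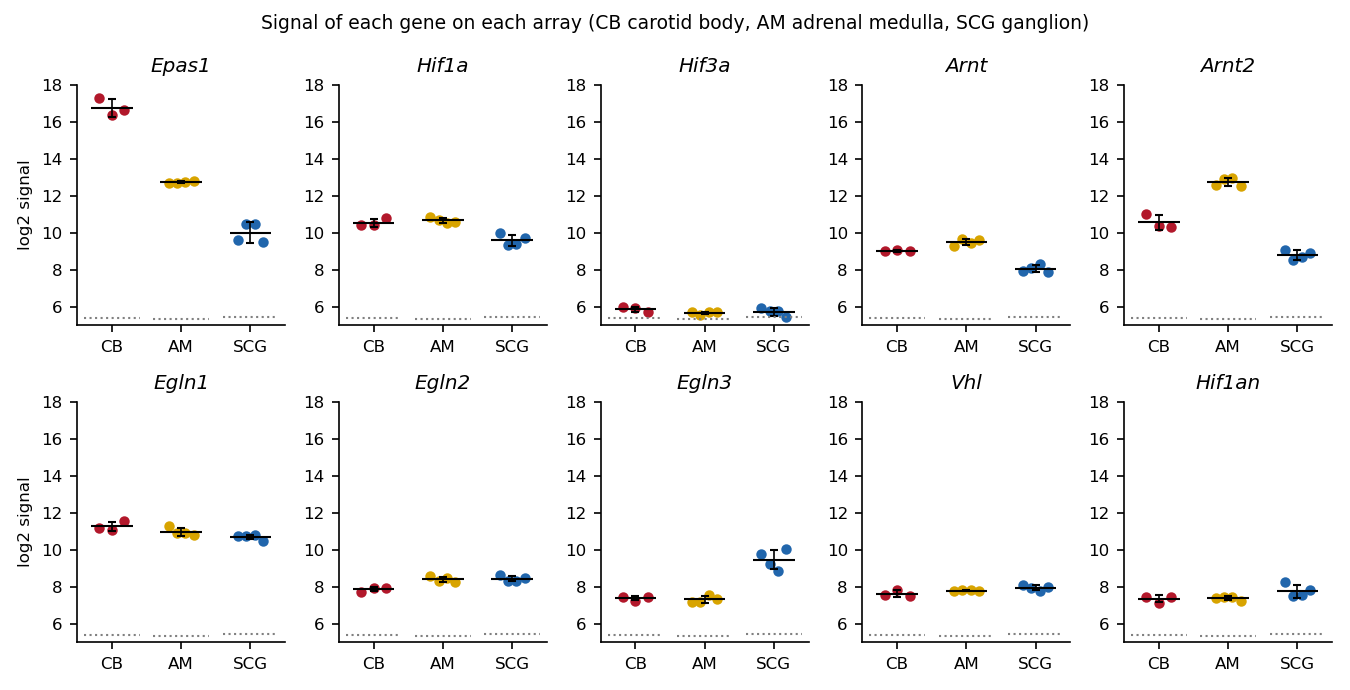
Log2 signal of the 10 members on each array (y axis; CB carotid body, AM adrenal medulla, SCG ganglion; points are arrays, bars the mean and SD, dotted lines the background bound of each tissue). Epas1 steps down from carotid body to ganglion without overlap, Arnt2 peaks in adrenal medulla, Egln3 stands apart in ganglion, and Hif3a lies close to the bound in all 3 tissues.

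Among the alpha subunits, Epas1 varied most. In replicate order it read 17.26, 16.33 and 16.63 in carotid body, 12.70, 12.70, 12.75 and 12.79 in adrenal medulla, and 9.60, 10.48, 10.47 and 9.47 in ganglion. No array of one tissue overlapped another tissue. The adrenal medulla arrays lay within a narrow band (SD 0.05), and those of carotid body and ganglion spread more widely (SD 0.48 and 0.54). Adrenal medulla replicates 1 and 2 share exactly the same value, so the SD of 0.05 rests partly on a recurring value. All 3 carotid body values exceed 16, as do 182 to 276 genes on each array, and what set that upper part of the scale is not stated, so the folds are those of the deposited values.

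The Epas1 difference between carotid body and ganglion was 6.74 (SE 0.28, limma adjusted p = 5.18e-08), which ranked 8 of 30142 genes by absolute size. It also stood between adrenal medulla and ganglion, where Epas1 was 6.63-fold higher in adrenal medulla (log2 2.73, SE 0.26, limma adjusted p = 9.28e-06, rank 837). Between carotid body and adrenal medulla the difference was 4.01 (SE 0.28, limma adjusted p = 1.66e-06, rank 279). In each comparison every one of the 21 alternative settings kept the call, with a carotid body minus ganglion range of 6.47 to 6.94.

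Epas1 is also transcribed in blood vessels and connective tissue, and markers that moved with it are given here. Of 9 pericyte and smooth muscle markers, carotid body exceeded adrenal medulla in 7 and ganglion in 8, and the rest were not called. Their summed log2 signal was 16.54 to 16.99 in carotid body, 12.94 to 13.19 in adrenal medulla and 10.13 to 10.42 in ganglion, the same order of tissues as Epas1, with Cnn1 under the bound in adrenal medulla and ganglion. The carotid body sum is mostly the smooth muscle actin gene Acta2 (mean 16.45), and the pericyte genes Pdgfrb and Kcnj8, named after their values were seen, were not called between carotid body and adrenal medulla, at -0.35 and -0.36. Of 10 endothelial markers, carotid body exceeded adrenal medulla in 4 and fell below it in 4, and it exceeded ganglion in all 10, with none under the bound in any tissue. The summed endothelial signal was 14.53 to 14.70 in carotid body, 15.35 to 15.89 in adrenal medulla and 10.66 to just under 11 in ganglion, so adrenal medulla had the highest endothelial sum and carotid body the highest Epas1. The fibroblast and adipocyte lists were also high in carotid body, with calls above both other tissues for all 7 fibroblast markers and for 5 of 6 adipocyte markers. The summed fibroblast signal was 18.06 to 18.24 in carotid body, 13.03 to 13.24 in adrenal medulla and 16.05 to 16.22 in ganglion. The summed adipocyte signal was 14.04 to 14.91 in carotid body, 9.67 to 10.08 in adrenal medulla and 9.39 to 10.13 in ganglion, with Lep under the bound in all 3 tissues. The part of each cell type in the Epas1 differences was not tested. That includes glomus cells, which no listed marker singles out.

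Of 19033 protein-coding genes that are not members, those whose profile over the 11 arrays lay nearest to Epas1 were Tagln, Igfbp3 and Rgs5. Their root mean square distances from Epas1 after centring were 0.58, 0.64 and 0.65 log2 units, with Pearson's r of 0.984, 0.977 and 0.977 over the 11 arrays. Tagln, an actin-binding protein of smooth muscle that is on the marker list above, averaged 12.91 in carotid body, 9.02 in adrenal medulla and 7.19 in ganglion. Igfbp3, which binds insulin-like growth factors in blood and tissue, averaged 14.35, 9.16 and 7.14 in the same order, and Rgs5, a G-protein regulator abundant in pericytes, 19.04, 13.57 and 11.79. These values describe likeness over arrays that fall into 3 tissues, and say nothing of control.

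Hif1a, the alpha subunit found in most cells, varied far less. It read 10.40, 10.43 and 10.79 in carotid body, 10.86, 10.67, 10.52 and 10.60 in adrenal medulla, and 9.97, 9.33, 9.39 and 9.68 in ganglion. Carotid body and adrenal medulla arrays overlapped, and every ganglion array lay under both. Between carotid body and adrenal medulla the difference was -0.12 with a 95% confidence interval of -0.48 to 0.24 (limma adjusted p = 0.637).

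Hif1a was 2.10-fold higher in adrenal medulla than in ganglion (log2 1.07, SE 0.15, limma adjusted p = 0.000198), and at 0.98 without ganglion replicate 2 it dropped under the 2-fold limit. In carotid body it exceeded ganglion by 0.95 (SE 0.16, limma adjusted p = 0.000865), just under that limit, and passed it in 6 of 21 alternative settings, among them the fits without carotid body replicate 1 (1.02), carotid body replicate 2 (1.00) or ganglion replicate 1 (1.07). The genes nearest to Hif1a in profile were Ctsz, a lysosomal cathepsin, Txndc5, a protein disulfide isomerase, and Rab34, a small GTPase, at distances of 0.13, 0.13 and 0.14 over the 11 arrays (Pearson's r 0.971, 0.971 and 0.966).

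Hif3a, whose products include dominant-negative forms, was close to background everywhere. It averaged 5.86 ± 0.14 in carotid body, 5.66 ± 0.07 in adrenal medulla and 5.72 ± 0.20 in ganglion (SD, n = 3, 4 and 4), only 0.46, 0.30 and 0.27 above the background bounds of those tissues. The bound in a tissue is the 95th percentile of the mean signals of 540 vomeronasal receptor and keratin-associated protein genes, taken as silent here. All differences of Hif3a lay between -0.06 and 0.20, with limma adjusted p of 0.225, 0.39 and 0.699, and a signal this near to the bound cannot show a moderate change.

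The partner subunits peaked in adrenal medulla. Arnt2, the ARNT relative best known from neurons and the developing hypothalamus, read 11.01, 10.38 and 10.28 in carotid body, 12.57, 12.91, 12.94 and 12.49 in adrenal medulla, and 9.08, 8.50, 8.67 and 8.88 in ganglion. The tissues did not overlap. Arnt2 was 4.51-fold below adrenal medulla in carotid body (log2 difference -2.17, SE 0.20, limma adjusted p = 1.31e-05) and 3.42-fold higher in carotid body than in ganglion (limma adjusted p = 4.63e-05). Between adrenal medulla and ganglion the difference was 3.95 (SE 0.19), 15.4-fold, with limma adjusted p = 3.57e-08.

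Arnt, the general partner that also serves the aryl hydrocarbon receptor, took the same order of tissues over a smaller range. It read 8.99, 9.05 and 8.99 in carotid body, 9.29, 9.64, 9.46 and 9.59 in adrenal medulla, and 7.92, 8.09, 8.31 and 7.87 in ganglion, again with no overlap. Carotid body replicates 1 and 3 share exactly the same Arnt value. Its 2.73-fold excess in adrenal medulla over ganglion was called (log2 1.45, SE 0.11, limma adjusted p = 1.37e-06). The difference of -0.48 between carotid body and adrenal medulla (limma adjusted p = 0.00883) and that of 0.96 between carotid body and ganglion (limma adjusted p = 7.54e-05) passed the adjusted p but not the 2-fold limit. Against ganglion it reached 1.05 without ganglion replicate 3 and 1.14 after repeated quantile normalization.

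The cortex markers moved with both partner genes towards adrenal medulla, with all 7 above their carotid body and ganglion levels and 5 and 6 of them under the bound in those tissues. The endothelial sums given above took the full order of both genes, highest in adrenal medulla and lowest in ganglion. The part of either cell type in the Arnt and Arnt2 differences was not tested. Nearest to Arnt2 in profile were Gimap4, a GTPase of lymphocytes and vessels, Atp10a, a lipid flippase, and Dapp1, an adaptor protein, at distances of 0.33, 0.33 and 0.33 (Pearson's r 0.982, 0.981 and 0.985). Nearest to Arnt were Dnajc1, a chaperone of the endoplasmic reticulum, Lrba, a vesicle trafficking protein, and Med13, a subunit of the Mediator complex, at 0.11, 0.12 and 0.12 (Pearson's r 0.987, 0.987 and 0.988).

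**Figure D3:**
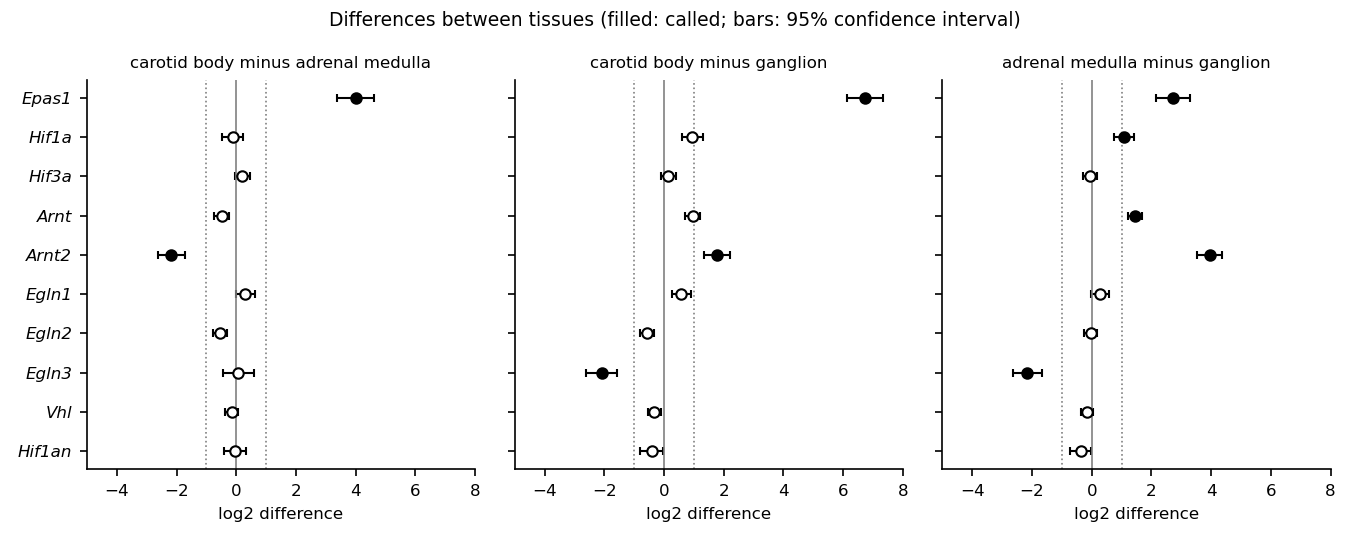
Log2 difference of each member in the 3 comparisons of tissues (x axis; points are limma estimates, bars 95% confidence intervals, filled points called, dotted lines the 2-fold limits). Epas1 and Arnt2 are called in every comparison, in opposite directions between carotid body and adrenal medulla, and Egln3 is called lower in carotid body and adrenal medulla than in ganglion.

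Of the prolyl hydroxylases, Egln3 was the one that was called. This enzyme, also known as PHD3, is induced by HIF in many cells and takes part in the death of developing sympathetic neurons deprived of growth factor. It read 7.46, 7.25 and 7.46 in carotid body, 7.16, 7.21, 7.54 and 7.37 in adrenal medulla, and 9.76, 9.25, 8.86 and 10.03 in ganglion. Carotid body and adrenal medulla overlapped, and the lowest ganglion array was above every array of both. Egln3 was 4.24-fold lower in carotid body than in ganglion (log2 difference -2.08, SE 0.23, limma adjusted p = 4.55e-05) and 4.45-fold lower in adrenal medulla than in ganglion (log2 difference -2.15, SE 0.22, limma adjusted p = 1.52e-05). Between carotid body and adrenal medulla the difference was 0.07, with a 95% confidence interval of -0.45 to 0.59 (limma adjusted p = 0.859), and it was -0.0811 under median centring, which lowers every gene by 0.15 in this comparison.

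Egln3 thus was highest in the tissue where Epas1 and Hif1a were lowest. The neuron markers moved with Egln3 against ganglion. Their summed log2 signal was 16.38 to 18.28 in carotid body, 16.74 to 17.39 in adrenal medulla and 19.78 to 19.91 in ganglion. Between carotid body and adrenal medulla, where Egln3 differed by 0.07, 5 of the 8 neuron markers were called higher in carotid body (median 1.88). The other neuron markers were not called there. The part of neurons in the Egln3 differences was not tested. Among the 4 ganglion arrays, Egln3 took the order replicate 4, 1, 2 and 3, from high to low. The summed glial signal took the opposite order, at 15.66, 15.81, 16.07 and 16.75. Epas1 was lower on ganglion replicates 1 and 4 than on 2 and 3. With 4 arrays these orders are descriptions only. Nearest to Egln3 in profile were Rnf14, a ubiquitin ligase, Slc1a4, a neutral amino acid transporter, and Chodl, a membrane lectin, at distances of 0.16, 0.21 and 0.22 (Pearson's r 0.989, 0.980 and 0.979), and Chodl lay under the bound in carotid body and adrenal medulla.

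Egln1, the main oxygen-sensing prolyl hydroxylase in most cells (PHD2), read 11.18, 11.07 and 11.56 in carotid body, 11.27, 10.89, 10.89 and 10.80 in adrenal medulla, and 10.73, 10.76, 10.78 and 10.50 in ganglion. The ganglion arrays lay just below those of both other tissues, whose values overlapped. The difference of 0.58 between carotid body and ganglion passed the adjusted p (limma adjusted p = 0.00819) at under 2-fold, while the other differences, 0.31 between carotid body and adrenal medulla and 0.27 between adrenal medulla and ganglion, had limma adjusted p = 0.138 each. Their 95% confidence intervals were -0.01 to 0.62 and -0.02 to 0.56. After repeated quantile normalization they were 0.38 (limma adjusted p = 0.0417) and 0.53 (limma adjusted p = 0.00389), and over all alternatives the adjusted p ran from 0.0285 to 0.457 and from 0.00389 to 0.336. Between carotid body and adrenal medulla the adjusted p was 0.0449 in limma without adrenal medulla replicate 1 (0.41), and the difference was 0.16 without carotid body replicate 3. Between adrenal medulla and ganglion it was 0.17 without adrenal medulla replicate 1.

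Egln2, the PHD1 gene, showed the reverse order at a similarly small size. It averaged 7.88 ± 0.13 in carotid body, 8.41 ± 0.13 in adrenal medulla and 8.45 ± 0.15 in ganglion (SD, n = 3, 4 and 4), and every carotid body array lay below every other array. The differences of -0.53 from adrenal medulla (limma adjusted p = 0.00292) and -0.57 from ganglion (limma adjusted p = 0.00147) were both under 2-fold. Adrenal medulla and ganglion arrays overlapped, and their difference was -0.04 with a 95% confidence interval of -0.26 to 0.18.

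Vhl, the substrate receptor of the ligase that destroys hydroxylated alpha subunits, averaged 7.63 ± 0.18 in carotid body, 7.79 ± 0.03 in adrenal medulla and 7.96 ± 0.14 in ganglion (SD, n = 3, 4 and 4). Its arrays overlapped between every pair of tissues. The difference of -0.32 between carotid body and ganglion passed the adjusted p (limma adjusted p = 0.0278, 0.00384 to 0.199 over the alternatives) at under 2-fold, and neither other difference did (limma adjusted p = 0.286 and 0.194). Hif1an averaged 7.36 ± 0.19, 7.40 ± 0.10 and 7.77 ± 0.35 in carotid body, adrenal medulla and ganglion (SD, n = 3, 4 and 4). Its ganglion arrays reached down to 7.48, barely above the highest value of 7.47 in both other tissues. No difference of Hif1an passed (limma adjusted p = 0.875, 0.0869 and 0.0961), and the 95% confidence intervals, -0.42 to 0.33, -0.79 to -0.04 and -0.72 to -0.02, exclude a 2-fold difference.

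Setting related genes against each other on the same array removes any scaling that a whole array shares. Only the change of such a difference between tissues can be read, since its size depends on the probes. Epas1 minus Hif1a was 6.86, 5.90 and 5.83 in carotid body, 1.83, 2.02, 2.24 and 2.19 in adrenal medulla, and -0.37, 1.15, 1.08 and -0.21 in ganglion. The balance thus in carotid body stood 4.13 above adrenal medulla and 5.79 above ganglion, and the tissues did not overlap. In ganglion the arrays fell into replicates 2 and 3 above and 1 and 4 below.

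Arnt2 minus Arnt was 2.02, 1.33 and 1.29 in carotid body, 3.28, 3.28, 3.48 and 2.91 in adrenal medulla, and 1.17, 0.40, 0.36 and 1.01 in ganglion. In carotid body it thus differed from adrenal medulla by -1.69 and from ganglion by 0.81, so Arnt2 varied more between tissues than Arnt. Egln3 minus Egln1 averaged -3.88 in carotid body, -3.64 in adrenal medulla and -1.22 in ganglion, where all 4 arrays lay above those of both other tissues. Egln2 minus Egln1 averaged -3.39, -2.56 and -2.24 in carotid body, adrenal medulla and ganglion, with no overlap, though adrenal medulla and ganglion arrays met at -2.44. Set against the other tissues, carotid body was tilted towards Egln1 over Egln2 and ganglion towards Egln3 over Egln1. Hif3a minus Hif1a overlapped between carotid body and adrenal medulla, and it follows Hif1a, since Hif3a was near background.

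**Figure D4:**
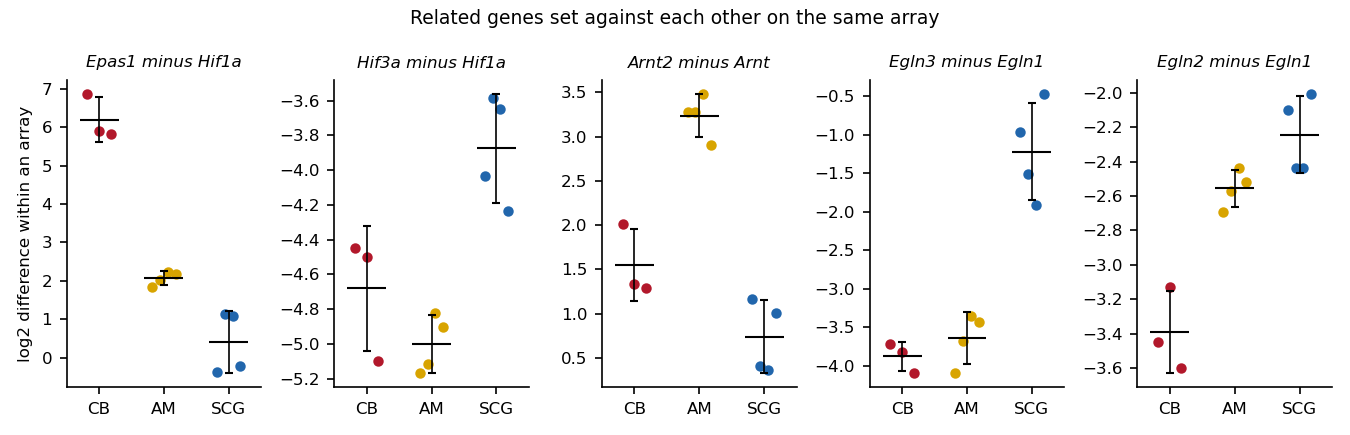
Difference between related genes on the same array (y axis, log2, with its own scale in each panel; CB carotid body, AM adrenal medulla, SCG ganglion; points are arrays, bars the mean and SD). Epas1 minus Hif1a stands near 6.20 on the carotid body arrays, 2.07 in adrenal medulla and 0.41 in ganglion, and Egln3 minus Egln1 is highest on the 4 ganglion arrays.

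Several genes that act with VHL were lower than in ganglion in carotid body, in adrenal medulla or in both. Of 16 listed ligase subunits and stability factors 13 were measured. In carotid body 4 were called below ganglion (median -0.84, where 8.28% of all genes were called lower) and 1 below adrenal medulla (median -0.33, where 4.95% were). In adrenal medulla 5 were called below ganglion (median -0.94, where 7.5% of all genes were), and the rest were not called. Cul2, the scaffold of the VHL ligase, averaged 9.74 ± 0.46 in carotid body, 10.34 ± 0.06 in adrenal medulla and 11.49 ± 0.24 in ganglion (SD, n = 3, 4 and 4), lower than in ganglion by differences of -1.75 and -1.15. Eloc, an adaptor that binds VHL, differed from ganglion by -1.70 in carotid body and -2.03 in adrenal medulla. Cops5, a subunit of the signalosome that regulates cullin ligases, differed by -2.24 and -1.91, and Usp20, a deubiquitinase that acts on HIF-1alpha, by -1.78 in carotid body and, not called, -0.97 in adrenal medulla. The called gene between carotid body and adrenal medulla was Os9, which takes part in protein quality control, at -1.18, and it was not called against ganglion, at -0.29 in carotid body and 0.89 in adrenal medulla. Vhl itself was not called in any of these comparisons. The neuron sums given above are likewise highest in ganglion, and their part in these differences was not tested.

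Among the HIF co-regulators, the calls against ganglion were upward. Of 8 co-regulator genes, 2 were called higher in carotid body than in ganglion, where 5.61% of all genes were. In adrenal medulla 3 were called higher than in ganglion, where 5.72% of all genes were. The rest were not called, and the medians were 0.28 and 0.77. Ep300, the acetyltransferase whose contact with HIF the asparaginyl hydroxylase blocks, averaged 11.74 ± 0.26 in carotid body, 12.40 ± 0.13 in adrenal medulla and 10.58 ± 0.16 in ganglion (SD, n = 3, 4 and 4), differences from ganglion of 1.16 and 1.82. Crebbp, its close relative, differed from ganglion by 1.30 and 1.22, and Ncoa1 was higher in adrenal medulla by 1.32. Cited2, an inhibitor that competes with HIF for these co-activators, stood below its adrenal medulla level in carotid body, at a difference of -1.52 (limma adjusted p = 0.000407). It was the only co-regulator called in that comparison, where 4.95% of all genes were called lower.

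The other members of the bHLH-PAS family gave few calls. Of 11 measured, 5 lay under the bound in all 3 tissues. In carotid body 2 were called higher than in adrenal medulla and 1 higher than in ganglion, against 6.06% and 5.61% of all genes. In adrenal medulla 1 was called lower than in ganglion, against 7.5%. The rest were not called. Ahr, the aryl hydrocarbon receptor that shares Arnt as a partner, averaged 10.31 ± 0.31 in carotid body, 7.06 ± 0.19 in adrenal medulla and 9.32 ± 0.05 in ganglion (SD, n = 3, 4 and 4). In carotid body it was 9.46-fold above adrenal medulla (limma adjusted p = 4.83e-08) and lower in adrenal medulla than in ganglion by a difference of -2.26, so it was lowest in the tissue where Arnt was highest. Npas2, a clock factor, averaged 8.38 ± 1.03 in carotid body, 6.46 ± 0.57 in adrenal medulla and 6.35 ± 0.48 in ganglion, and was called higher in carotid body than in both (limma adjusted p = 0.00867 and 0.00528).

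Most listed HIF target genes were not called. Of 23 measured, carotid body exceeded adrenal medulla in 2 and fell below it in 2, carotid body exceeded ganglion in 2 and fell below it in 5, and adrenal medulla exceeded ganglion in 2 and fell below it in 5, with medians of 0.00, -0.09 and -0.05. Over all genes the shares called higher and lower were 6.06% and 4.95%, 5.61% and 8.28%, and 5.72% and 7.5% in these comparisons, so calls of 2 in 23 lie near that background. Adm, the vasodilator peptide adrenomedullin, averaged 14.72 ± 0.18 in carotid body, 14.20 ± 0.37 in adrenal medulla and 8.72 ± 0.52 in ganglion (SD, n = 3, 4 and 4), 63.9-fold and 44.7-fold above ganglion. The angiogenic factor gene Vegfa, named after its values were seen, also exceeded ganglion, by 2.10 in carotid body and 2.30 in adrenal medulla, and the endothelial sums, which stand in the same direction against ganglion, were not tested for their part. Slc2a3, a neuronal glucose transporter, was lower than in ganglion by differences of -3.72 in carotid body and -3.55 in adrenal medulla, and Tfrc, the transferrin receptor, by -2.92 and -1.70. Pgk1, an enzyme of glycolysis, was highest in ganglion, with differences of -1.41 between carotid body and adrenal medulla, -2.80 between carotid body and ganglion and -1.39 between adrenal medulla and ganglion. Ndrg1, a stress-response gene also abundant in Schwann cells, stood 5.56-fold above adrenal medulla in carotid body, and in adrenal medulla it differed from ganglion by -2.51. All 5 glial markers measured had the same calls in these comparisons, with sums of 15.56 to 16.49 in carotid body, 11.38 to 11.96 in adrenal medulla and 15.66 to 16.75 in ganglion, and their part was not tested. Pfkfb3, which speeds glycolysis, was 3.22-fold above adrenal medulla in carotid body. Epo, Car9 and Ankrd37 lay under the bound in all 3 tissues.

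**Figure D5:**
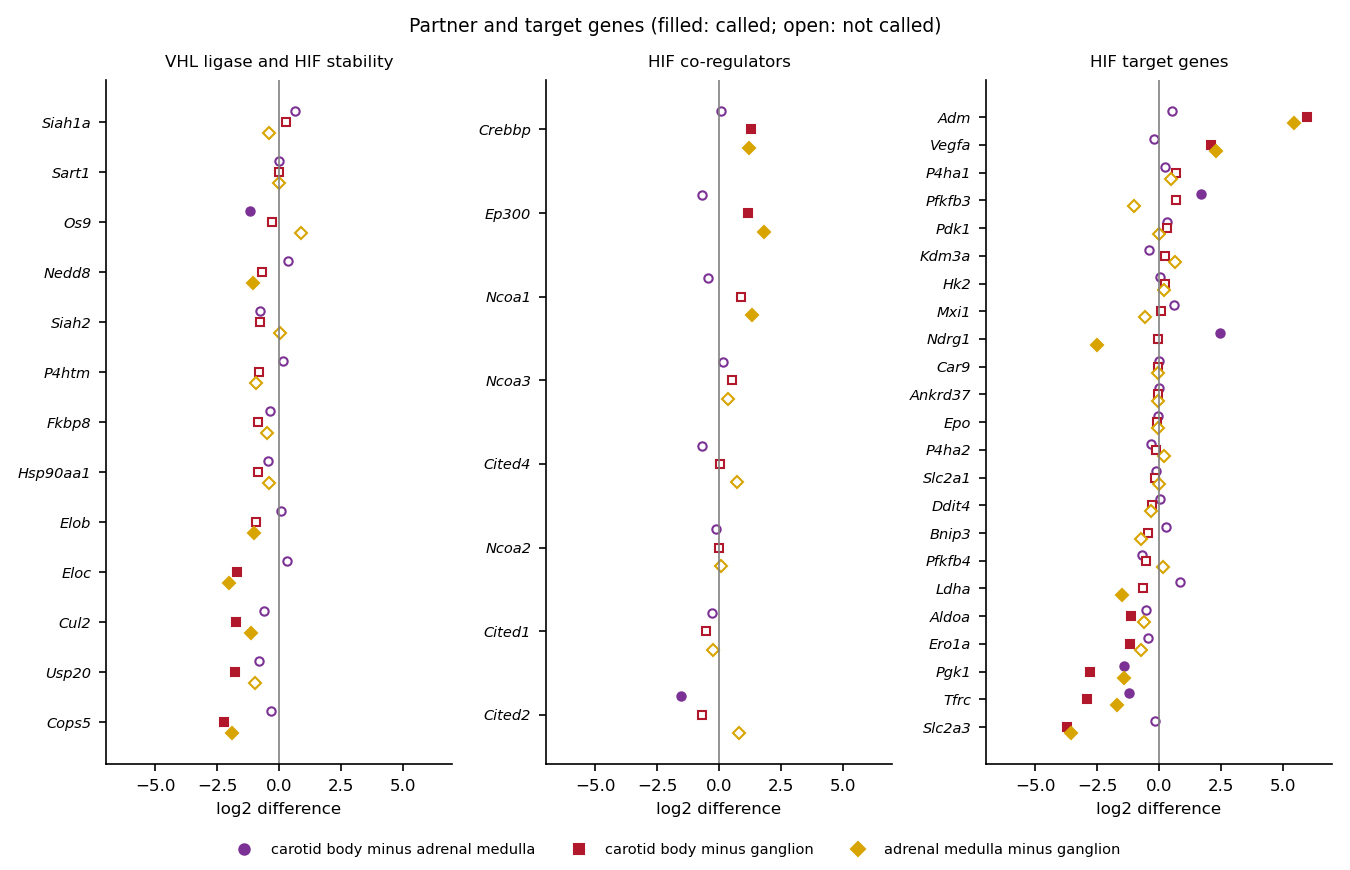
Log2 differences of the measured genes of 3 lists (panels, 1 gene a row) in the 3 comparisons (x axis; symbols by comparison, filled where called). Most genes of the VHL ligase and stability list lie left of 0 against ganglion, with Cops5 at -2.24 in carotid body, while Ep300 and Crebbp lie to the right, and Adm and Slc2a3 mark the ends of the target list.

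Collagen prolyl and lysyl hydroxylases use the same cofactors as the EGLN enzymes on another substrate. Of 8 measured, carotid body exceeded adrenal medulla in 1 and fell below it in 1, and did the same against ganglion, while adrenal medulla exceeded ganglion in 4 and fell below it in 1. Apart from those 4, where 5.72% of all genes were called higher, such counts of 1 lie near the shares of all genes given above. Plod2, a lysyl hydroxylase, averaged 8.11 ± 0.17 in carotid body, 11.12 ± 0.30 in adrenal medulla and 8.12 ± 0.26 in ganglion (SD, n = 3, 4 and 4), highest where the cortex markers were, whose part was not tested. P4ha3, a collagen prolyl hydroxylase subunit, averaged 7.14 ± 0.39, 5.94 ± 0.12 and 9.13 ± 0.21, and was highest in ganglion, as Egln3 was. P3h2, which modifies basement membrane collagen, exceeded ganglion by 1.18 in carotid body and 1.64 in adrenal medulla.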

How the data were processed

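The deposited log2 signals were made by the authors with RMA, and the submitters' processing notes name Affymetrix Expression Console as the program; versions and genome build are not given in the sources used here. The table has 72688 features, of which 6732 are controls. Transcript clusters with exactly 1 gene symbol in the array annotation were kept, the brightest per gene over all 11 arrays (30142 genes), and symbols were updated through Entrez identifiers. A second cluster that the annotation pairs with Hif1a and another symbol was left out. No gene was removed as dim. Array medians over these genes were 5.63 to 5.84, and Pearson's r across genes, which are not replicates, was 0.985 to 0.996 between arrays of 1 tissue. Precision is limited by the number of arrays. Some values exceed 16, and 55.5% of genes have a value that recurs exactly on several arrays, so the values carry steps of an unstated kind.

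Tissue means were fitted over all 11 arrays with limma 3.58.1 (lmFit, eBayes) in R 4.3.3, with Benjamini-Hochberg adjustment per comparison, at an adjusted p under 0.05 and a 2-fold difference. Simulated data were made for carotid body minus adrenal medulla (30142 genes), with normal noise independent between genes. Of the changed genes, 96 of 100 at log2 2 and all 100 at log2 4 were recovered, with 1 false call. The changed genes were drawn from brighter genes only, so recovery near background was not tested. P-values measure the spread between pools. Most genes were named by rule: all 10 members, and up to 3 called genes per list and comparison with the largest difference. The 3 protein-coding genes nearest in profile to each member whose tissue means span at least 1 were also named. Th, Chgb, Pdgfrb, Kcnj8 and Vegfa were named outside this rule, as were genes named for lying under the background bound. The members and lists were chosen with earlier results of these data known. Replicate numbers are shared between tissues, but the labels tie nothing to them and same-numbered arrays did not deviate together, so they were not treated as pairs. Alternatives were median centring, repeated quantile normalization, removal of dim genes, protein-coding genes only, all clusters, mean of a gene's rows, array weights, a trended robust prior, the replicate number as a block, a control-feature covariate, and each array left out.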

Additional observations from a re-analysis of the deposited data

Results flagged for a closer look

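Within a tissue, 2 of the 20 sets of 4 arrays tested (10 members in adrenal medulla and ganglion) had 1 array far from the other 3 by Dixon's ratio of gap to range, and chance gives about 1 set in 20. Hif3a in adrenal medulla had a ratio of 1.00, because 3 arrays share the value 5.70 exactly and replicate 2 reads 5.56, a gap smaller than most spreads between arrays. Egln1 in ganglion had a ratio of 0.843, from replicate 4 at 10.50 below the others at 10.73 to 10.78. Neither gene was called in a comparison with that tissue.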

How the results depend on the processing

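Of 630 recomputed member differences (10 members, 3 comparisons, 21 alternatives), 611 kept their direction and their side of the threshold, 8 became called, 1 lost its call and 10 changed sign. The count of members called between carotid body and ganglion was 3, and 5 after repeated quantile normalization, with Hif1a at 1.22 and Arnt at 1.14. Leaving out single arrays gave 2 members called between carotid body and adrenal medulla each time, 3 to 4 between carotid body and ganglion, and 4 to 5 between adrenal medulla and ganglion. Hif1a between carotid body and ganglion also passed with array weights (1.13) and with the control-feature covariate (1.08).

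The sign changes concern differences near 0 that were not called either way. Under median centring Egln3 between carotid body and adrenal medulla was -0.0811, and between adrenal medulla and ganglion Egln2 was 0.0476 and Hif3a 0.0281. Repeated quantile normalization gave 0.0795 for Egln2 and 0.0295 for Hif3a in the same comparison, and the fit without ganglion replicate 1 gave 0.0230 and 0.0138. Egln2 was 0.00345 without adrenal medulla replicate 4. Hif1an between carotid body and adrenal medulla was 0.0326 with the covariate and 0.0634 without carotid body replicate 2. Over the fits that leave out 1 array, Hif1an in that comparison ranged from -0.105 to 0.0634, and between adrenal medulla and ganglion Egln2 ranged from -0.0937 to 0.0230 and Hif3a from -0.149 to 0.0138. Median centring shifts every gene by -0.15, -0.07 and 0.09 in the 3 comparisons, and the cause of the other changes was not tested. With the replicate block, 2, 3 and 5 members were called in the 3 comparisons, as without it, and the correlation of deviations between same-numbered arrays ran from -0.17 to 0.25. No within-array difference between related genes moved by more than the spread between arrays. The nearness of Hif3a to the background bound limits what its values can show.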
